A study of Homo sapiens with 18 samples.

Results

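The difference between the ovarian cancer lines OVCAR4 and Kuramochi in their response to a 3D culture model of the omentum was measured by RNA sequencing. The response of a line was its change on 3D relative to plastic, and the difference was the OVCAR4 response minus the Kuramochi response on the log2 scale, for every gene with enough counts. The comparison used 12 of the 18 libraries of the series, 3 of each line in each culture. In the 3D groups, GFP-labeled cancer cells grew for 48 h on primary omental fibroblasts embedded in collagen I under a layer of primary mesothelial cells, and were then isolated by fluorescence-activated sorting. The plastic groups held the same labeled lines without the omental cells, taken through a sham sort. The study reports independent experiments for each line. Each line stands for 1 tumor, so a difference between them is a difference between these lines.

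High-grade serous ovarian cancer spreads early to the omentum, a fatty fold of the peritoneum covered by mesothelial cells that lie on fibroblasts and collagen. Cancer cells there meet secreted cytokines, among them members of the interleukin-6 family, which act through receptors that share the subunit IL6ST and activate the transcription factor STAT3. In the liver the same pathway switches on the acute-phase genes, such as haptoglobin and complement C3, and NF-kB acts on many of these genes as well.

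The libraries held 28415048 to 38490218 counts (median 32453293), and their scaling factors lay between 0.951 and 1.04. Both lines carried the lineage marker PAX8, at a mean of 290.0 CPM (counts scaled to library size) on 3D and 177 CPM on plastic in OVCAR4, and at 448 and 470.0 CPM in Kuramochi. The lines differed in other markers: EPCAM, an epithelial adhesion molecule, averaged 337 and 409 CPM in OVCAR4 on 3D and plastic, against 3.09 and 3.77 CPM in Kuramochi, and VIM, a mesenchymal filament gene, averaged 122 and 40.8 CPM against 2370 and 1790 CPM. OVCAR4 3D replicates 4 and 6 were closer to each other than any other replicate pair (chi-square of 1.98 per degree of freedom, against 31.3 to 114 for the other pairs within a group), and were kept as separate samples. Some fibroblast genes were near 0 on plastic and present on 3D in both lines, and others, such as THY1, were present on plastic in Kuramochi. DCN, which encodes decorin, had 1.29, 16.1 and 15.9 CPM in OVCAR4 3D replicates 42, 4 and 6 and 9.67, 1.33 and 14.7 CPM in Kuramochi 3D replicates 2, 4 and 8, with 0 counts in all 6 plastic libraries. In these bulk libraries, fewer cells of a type and less RNA per cell cannot be told apart.

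The response differed between the lines in 86 of 20645 genes (0.417% of those tested) at an adjusted p under 0.05 (edgeR's quasi-likelihood test with Benjamini-Hochberg adjustment). Such genes are named called below. The difference was positive in 45 genes (0.218%) and negative in 41 (0.199%), and 1 of the 41 is not reported here. An unadjusted p under 0.05 was found for 7.48%. In the same fit 20.2% of the genes changed in OVCAR4 (10.1% rose and 10.2% fell) and 20.5% in Kuramochi (10.3% rose and 10.3% fell). A total of 956 genes rose in both lines and 1234 fell in both, while 19 changed in opposite directions, of which 10 were among the 86. Another 3997 genes passed the test in 1 line and not in the other, and 65 of these were called in the comparison of the lines. The standard error of a difference had a median of 0.34, against 0.24 for the response of either line, and the smallest called difference was 1.14 on the log2 scale.

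The number of called genes rested on single libraries. It was 8 without OVCAR4 plastic replicate 6, 15 without OVCAR4 3D replicate 4, 21 without OVCAR4 3D replicate 6, 29 without OVCAR4 plastic replicate 4, 120 without OVCAR4 3D replicate 42, and 114 without OVCAR4 plastic replicate 42. Without Kuramochi 3D replicate 2, 4 or 8 it was 52, 72 and 55, and without Kuramochi plastic replicate 2, 4 or 8 it was 67, 43 and 53. In all 12 of these fits 8 genes were called: COL3A1, MREG, C4A, SYTL3, CDK14, PLXDC2, P2RY6 and C3. With OVCAR4 3D replicates 4 and 6 counted as 1 sample, 28 genes remained, among them these 8 and C4B, HP, VEGFC, SH3GL3, SELENOP, COL4A5, SPARC, WT1, ZEB2, ACTA2, HOXA3, SH3PXD2A and MAF. The other genes named as called below were not called in that fit. With the replicate number as a block, 132 genes were called, 67 of them among the 86.

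**Figure D1:**
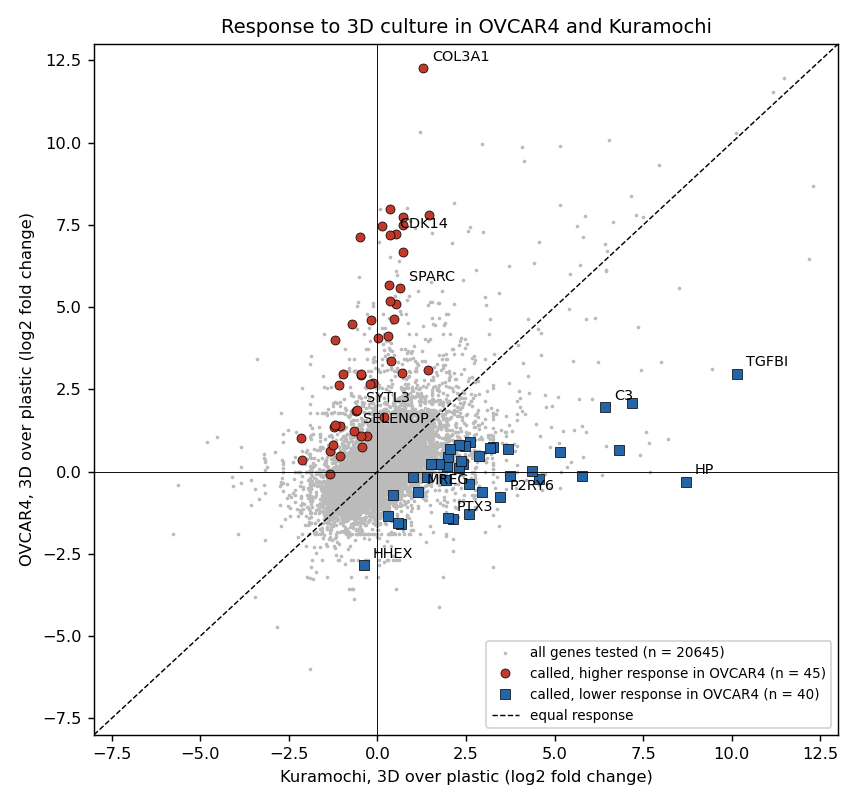
Log2 fold change of 3D over plastic in OVCAR4 (vertical axis) and in Kuramochi (horizontal axis) for the 20645 genes tested (grey), with the called genes as circles (higher response in OVCAR4, 45 genes) and squares (lower response, 40 genes shown). The called genes lie off the dashed line of equal response, by differences of 1.14 or more, and some are close to it on these axes. Many lie near 1 of the axes, while others, such as TGFBI and C3, do not. COL3A1 and HP have the most positive and the most negative difference.

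The complement genes C3, C4A and C4B rose more on 3D in Kuramochi than in OVCAR4, while most members of the complement list were not called between the lines. Complement C3 (chromosome 19, 6677704 to 6730562, minus strand, GRCh38), the central component of the cascade, had 829, 925 and 952 CPM in OVCAR4 3D against 399, 143 and 151 CPM in OVCAR4 plastic. In Kuramochi it had 103, 81.7 and 103 CPM on 3D against 0.917, 0.685 and 1.82 CPM on plastic. The 3D libraries of each line were above its plastic libraries, and all OVCAR4 libraries were above all Kuramochi libraries. The log2 response was 1.97 (SE 0.35) in OVCAR4 and 6.43 (SE 0.46) in Kuramochi, a difference of -4.46 (SE 0.54, adjusted p = 0.00553 from edgeR). The difference was -3.81 without OVCAR4 plastic replicate 42, and the adjusted p was 0.0591 when the 6 libraries of OVCAR8 were added to the model.

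The genes C4A and C4B (chromosome 6, 31982057 to 32002681 and 32014795 to 32035418) encode the 2 forms of complement C4, are nearly identical, and may have shared reads, so that their split is uncertain. C4A had 1.52, 2.27 and 2.02 CPM in OVCAR4 3D and 1.31, 1.24 and 0.987 CPM in OVCAR4 plastic, against 41.4, 57.4 and 54.9 CPM in Kuramochi 3D and 5.96, 4.06 and 6.88 CPM in Kuramochi plastic. The difference in log2 response was -2.48 (SE 0.33, adjusted p = 0.00979) for C4A and -2.53 (SE 0.39, adjusted p = 0.0173) for C4B, both from edgeR. The call of C4B ended without OVCAR4 3D replicate 4 (adjusted p = 0.0505) or plastic replicate 6 (0.0591). Of the 20 complement genes tested, 9 rose and 2 fell in OVCAR4 (10.1% and 10.2% over all genes). In Kuramochi 12 rose and 1 fell (10.3% each over all genes). The members C3, C4A and C4B were called in the comparison of the lines (0.417% over all genes). Other members rose in both: CFB, the protease of the alternative pathway, had a log2 response of 3.58 (SE 0.34) in OVCAR4 and 3.28 (SE 0.35) in Kuramochi, and C1S, a protease of the classical pathway, had 2.79 (SE 0.38) and 2.02 (SE 0.35). Their differences of 0.30 (SE 0.46) and 0.77 (SE 0.50) did not pass the test (adjusted p = 1.00 and 0.881 from edgeR). The median difference over the complement list was -0.01, beside 0.01 over all genes tested.

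Several genes with related functions were chosen for description after their values were seen: HP, OSMR, SOCS3, LRG1, IL4R and RUNX1. HP, which encodes the hemoglobin-binding protein haptoglobin, was counted in all 3 Kuramochi 3D libraries at 5.82, 5.37 and 6.19 CPM and once in the 3 Kuramochi plastic libraries. OVCAR4 held it at 0.127, 0.0307 and 0.0798 CPM on 3D and at 0.0312, 0.0887 and 0.185 CPM on plastic, where the groups overlap. It was 571-fold higher on 3D in Kuramochi (95% counting interval 102 to 22600), and the ratio was 360.0 without Kuramochi plastic replicate 4, while leaving out plastic replicate 2 gave at least 123-fold. The difference between the lines had an adjusted p of 0.00553 (edgeR), and of 0.0552 without OVCAR4 plastic replicate 6.

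OSMR, the receptor subunit for oncostatin M that pairs with IL6ST, had 73.9, 71.2 and 73.4 CPM in OVCAR4 3D and 39.6, 34.5 and 50.3 CPM in OVCAR4 plastic. In Kuramochi it had 244, 342 and 265 CPM on 3D and 63.4, 48.2 and 60.5 CPM on plastic. It rose in both lines, by a log2 response of 0.81 (SE 0.17) in OVCAR4 and 2.31 (SE 0.18) in Kuramochi, and the difference was -1.49 (SE 0.24, adjusted p = 0.019 from edgeR). The call ended without OVCAR4 3D replicate 4 (0.075), 3D replicate 6 (0.0689) or plastic replicate 6 (0.0591). IL6ST rose in both lines, with 1.13 (SE 0.26) in OVCAR4 and 1.71 (SE 0.26) in Kuramochi, and was not called between them. LIF, a ligand of the same family, rose in both as well, with 2.11 (SE 0.42) and 2.45 (SE 0.43). LIF, IL6, IL6R, LIFR and STAT3 were not called between the lines.

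SOCS3, a feedback inhibitor that STAT3 induces, had 68.5, 65.3 and 70.6 CPM in OVCAR4 3D and 41, 53.5 and 55.1 CPM in OVCAR4 plastic, against 249, 152 and 131 CPM in Kuramochi 3D and 48.9, 44.1 and 40 CPM in Kuramochi plastic. The difference was -1.55 (SE 0.29, adjusted p = 0.0371 from edgeR). It was called without Kuramochi 3D replicate 2, 4 or 8 or OVCAR4 plastic replicate 42, and not in the 8 fits that left out another library (adjusted p 0.0526 to 0.126) or by limma-voom (0.0573). LRG1, a secreted glycoprotein of the acute phase, had 37.3, 36.8 and 37.8 CPM in OVCAR4 3D and 29.4, 38.6 and 34.8 CPM in OVCAR4 plastic, against 7.39, 7.72 and 8.01 CPM in Kuramochi 3D and 0.917, 1.1 and 2.73 CPM in Kuramochi plastic. Only the Kuramochi cultures did not overlap. Its difference was -2.19 (SE 0.39, adjusted p = 0.0334) and -2.81 without Kuramochi plastic replicate 8, and it was called without Kuramochi plastic replicate 2 or 8, OVCAR4 3D replicate 42 or OVCAR4 plastic replicate 42, and not in the other 8 fits (0.0519 to 0.113).

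IL4R, the receptor subunit for interleukin-4 and interleukin-13, had 40, 42.9 and 45.8 CPM in OVCAR4 3D and 29.2, 30.2 and 32.6 CPM in OVCAR4 plastic, against 7.52, 3.11 and 6.16 CPM in Kuramochi 3D and 0.458, 0.987 and 0.838 CPM in Kuramochi plastic. The difference was -2.39 (SE 0.41, adjusted p = 0.0259 from edgeR). Its call ended without Kuramochi 3D replicate 8 (0.0544), Kuramochi plastic replicate 8 (0.0574), OVCAR4 3D replicate 4 (0.0915) or 6 (0.076) or OVCAR4 plastic replicate 4 (0.0599) or 6 (0.0746), and with the replicate block (0.0667). RUNX1, a transcription factor of the runt family, had 20, 19.7 and 18 CPM in OVCAR4 3D and 12.1, 9.79 and 11.6 CPM in OVCAR4 plastic, against 49.5, 31.7 and 37.4 CPM and 5.22, 7.07 and 9.32 CPM in Kuramochi. It rose in both lines, and the difference was -1.67 (SE 0.30, adjusted p = 0.0334). The call ended with the replicate block (0.0675) and in 7 of the 12 fits that left out 1 library (0.0538 to 0.113), but not without Kuramochi 3D replicate 4, Kuramochi plastic replicate 2 or 8, OVCAR4 3D replicate 42 or OVCAR4 plastic replicate 42.

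Among 29 chemokines and cytokines tested, CXCL2, a chemokine that attracts neutrophils, was the member called (0.417% over all genes). It had 1.29, 0.799 and 0.984 CPM in OVCAR4 3D and 1.84, 1.57 and 1.36 CPM in OVCAR4 plastic, against 15.5, 6 and 5.34 CPM in Kuramochi 3D and 1.29, 0.905 and 1.27 CPM in Kuramochi plastic. The 3D libraries were the higher ones in Kuramochi and the lower ones in OVCAR4, where the change did not pass the test. The difference was -3.57 (SE 0.55, adjusted p = 0.0173 from edgeR) and -2.92 without Kuramochi 3D replicate 2. The call ended without OVCAR4 3D replicate 4 (0.0588), 3D replicate 6 (0.0562) or plastic replicate 6 (0.0552). Related members had differences of the same sign that did not pass the test: CXCL1 -2.77 (SE 0.63), CXCL3 -2.19 (SE 0.46) and CCL2 -1.47 (SE 0.32), with adjusted p of 0.0887, 0.0638 and 0.0736. IL23A differed the other way by 3.22 (SE 0.66, adjusted p = 0.0543). The median difference over the list was -1.12, and it was -0.14 without Kuramochi 3D replicate 8. A positive difference was found in 11 of 29 members, beside 10487 of the 20645 genes tested. By DESeq2 9 members were called, beside 327 over all genes tested.

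The promoters of the called genes were searched for the letters of 5 motifs, on both strands, in RefSeq windows of GRCh38.p14 that run from 250 bases before to 50 bases after a gene's start. Of the 40 genes with the lower response in OVCAR4, 30 had a window, and 8 of these (26.7%) held the NF-kB letters GGGNNTTCC, beside 7.95% of 27305 genes with a window: CXCL2, IL4R, LRG1, MREG, OSMR, PTX3, RBM47 and SLC1A3. Of the 45 genes with the higher response, 33 had a window and 5 (15.2%) held these letters. The interferon-response letters GAAANNGAA occurred in 4 and 5 genes (13.3% and 15.2%, beside 9.86%), the AP-1 letters TGANTCA in 5 and 4 (16.7% and 12.1%, beside 9.37%), the TEAD letters CATTCC in 8 and 7 (26.7% and 21.2%, beside 16.7%), and the E-box CACGTG in 1 and 4 (3.33% and 12.1%, beside 8.77%). A gene was counted if any of its windows held the letters. The 30 genes had 52 windows and the 33 genes had 63, beside 35116 windows for the 27305 genes. The called genes thus had more windows per gene, which raises their shares relative to all genes. The 27305 genes were also not limited to the 20645 tested, while every called gene had passed the count filter. These shares are a description of letters in a fixed window and were not tested. Of 31 NF-kB targets and regulators tested for expression, 24 had a positive difference, beside 10487 of 20645 over all genes, with a median of 0.25. In OVCAR4 19 rose (10.1% over all genes), and in Kuramochi 14 rose and 1 fell (10.3% each over all genes). None of the 31 was called between the lines. A window is shown for CXCL2 (chr4:74099146-74099445, minus strand), PTX3 (chr3:157436600-157436899, plus strand) and LRG1 (chr19:4539987-4540286, minus strand). These are 3 genes of secreted proteins that rose in Kuramochi and not in OVCAR4. Capitals mark only exact matches to GGGNNTTCC on either strand, which begin 53, 95 and 76 bases before the start. The CXCL2 window also holds gggaatttcc before the marked letters. That stretch has another base in the middle, so it did not match and is not marked.
CXCL2: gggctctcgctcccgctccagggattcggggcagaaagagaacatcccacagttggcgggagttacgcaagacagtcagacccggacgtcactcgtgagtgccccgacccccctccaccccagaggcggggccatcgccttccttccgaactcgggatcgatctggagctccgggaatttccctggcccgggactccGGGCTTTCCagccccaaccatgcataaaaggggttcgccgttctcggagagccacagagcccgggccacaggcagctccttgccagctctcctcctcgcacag
PTX3: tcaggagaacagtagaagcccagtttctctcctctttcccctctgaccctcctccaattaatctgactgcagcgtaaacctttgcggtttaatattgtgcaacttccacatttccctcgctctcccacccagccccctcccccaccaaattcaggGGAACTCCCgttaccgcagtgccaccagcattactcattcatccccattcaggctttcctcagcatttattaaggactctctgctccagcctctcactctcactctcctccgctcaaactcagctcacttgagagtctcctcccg
LRG1: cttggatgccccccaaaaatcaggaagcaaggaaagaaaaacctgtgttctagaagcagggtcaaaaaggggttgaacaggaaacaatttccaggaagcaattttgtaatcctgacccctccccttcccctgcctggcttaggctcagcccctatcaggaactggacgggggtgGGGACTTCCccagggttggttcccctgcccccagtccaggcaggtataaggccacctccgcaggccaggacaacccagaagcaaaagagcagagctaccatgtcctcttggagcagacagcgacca

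**Figure D2:**
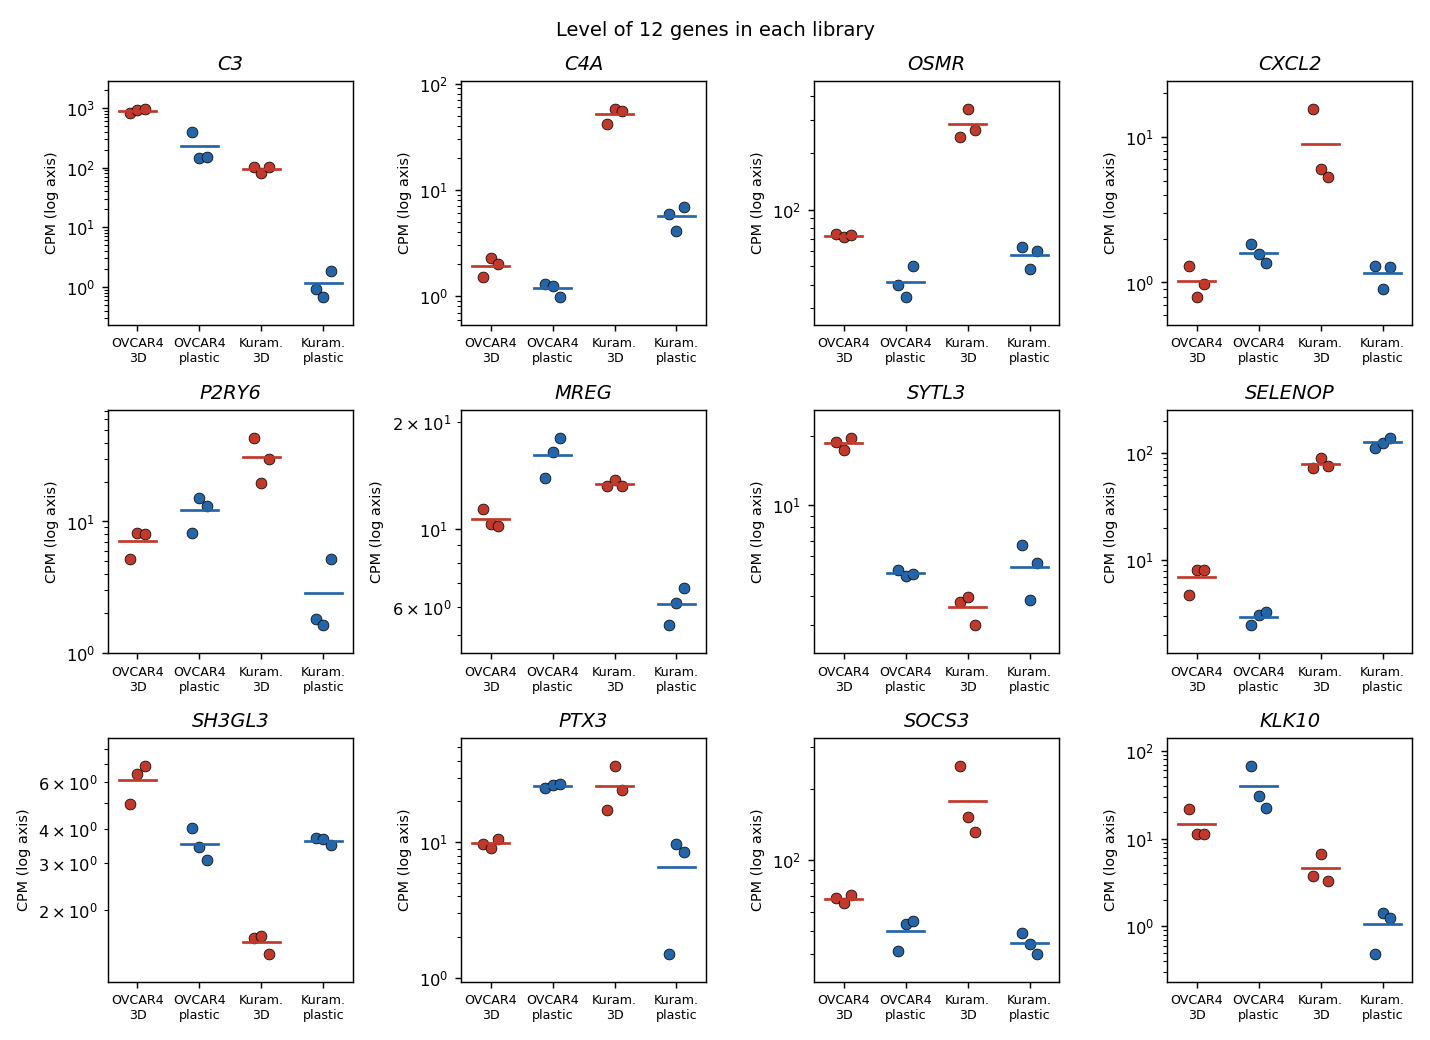
CPM (log axis) of 12 genes in each library, with OVCAR4 3D, OVCAR4 plastic, Kuramochi (Kuram.) 3D and Kuramochi plastic from left to right, a point for each of the 3 libraries and a line at their mean. C3, C4A, OSMR, SOCS3, CXCL2 and P2RY6 lie far above plastic on 3D in Kuramochi, while MREG, PTX3 and KLK10 lie below plastic on 3D in OVCAR4 and above it in Kuramochi, and SELENOP and SH3GL3 show the opposite.

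In 10 genes the lines moved in opposite directions, each passing the test in both lines and in the comparison. MREG (chromosome 2, 215942584 to 216034096, minus strand), which encodes melanoregulin, a protein of organelle transport and lysosome maturation, fell in OVCAR4 and rose in Kuramochi. It had 11.4, 10.3 and 10.2 CPM in OVCAR4 3D and 13.9, 16.5 and 18.1 CPM in OVCAR4 plastic, against 13.2, 13.7 and 13.2 CPM in Kuramochi 3D and 5.33, 6.17 and 6.81 CPM in Kuramochi plastic. The cultures did not overlap in either line. The log2 response was -0.61 (SE 0.16) in OVCAR4 and 1.13 (SE 0.16) in Kuramochi, a difference of -1.74 (SE 0.23, adjusted p = 0.00921 from edgeR), and it was called in all 12 fits without 1 library.

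PTX3, a secreted pentraxin of innate immunity, had 9.78, 9.07 and 10.6 CPM in OVCAR4 3D and 25.1, 26.4 and 26.8 CPM in OVCAR4 plastic, against 17.4, 36.4 and 24.2 CPM in Kuramochi 3D and 1.52, 9.79 and 8.45 CPM in Kuramochi plastic. The difference of PTX3 was -3.39 (SE 0.64, adjusted p = 0.0384), and it was called without Kuramochi 3D replicate 2 or Kuramochi plastic replicate 2 but not in the other 10 fits (0.0554 to 0.133). KLK10, a secreted serine protease, had 22, 11.2 and 11.4 CPM in OVCAR4 3D and 67.2, 30.9 and 22.6 CPM in OVCAR4 plastic, against 3.75, 6.75 and 3.26 CPM in Kuramochi 3D and 0.487, 1.43 and 1.24 CPM in Kuramochi plastic. Its difference was -3.57 (SE 0.66, adjusted p = 0.0358), and -2.97 without OVCAR4 plastic replicate 42. The call of KLK10 held without Kuramochi 3D replicate 8, OVCAR4 3D replicate 42 or OVCAR4 plastic replicate 42, and ended in the other 9 fits (0.0547 to 0.116) and by limma-voom (0.0862).

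In 6 of the 10 genes the change was a rise in OVCAR4 and a fall in Kuramochi. SELENOP, a plasma protein that carries selenium, had 4.74, 8.05 and 8.14 CPM in OVCAR4 3D and 2.47, 3.05 and 3.3 CPM in OVCAR4 plastic, against 73.3, 89.6 and 76.1 CPM in Kuramochi 3D and 113, 126 and 140 CPM in Kuramochi plastic. Its difference was 1.91 (SE 0.28, adjusted p = 0.0148 from edgeR), and the call ended without OVCAR4 3D replicate 4 (0.0504) or plastic replicate 6 (0.0552). SH3GL3, an endophilin that acts in endocytosis, had 4.97, 6.46 and 6.89 CPM in OVCAR4 3D and 4.03, 3.43 and 3.08 CPM in OVCAR4 plastic, against 1.57, 1.6 and 1.37 CPM in Kuramochi 3D and 3.7, 3.67 and 3.5 CPM in Kuramochi plastic. The difference of SH3GL3 was 2.05 (SE 0.30, adjusted p = 0.0148), and its call ended without OVCAR4 3D replicate 4 or 6 (both 0.0504) or plastic replicate 6 (0.0591).

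VEGFC, a growth factor of lymphatic vessels, was rare in OVCAR4, with 29 counts on 3D and 3 on plastic, which is 8.67-fold (95% counting interval 2.69 to 44.5) and 17.1-fold without OVCAR4 plastic replicate 4. In Kuramochi it had 9.53, 8.41 and 9.18 CPM on 3D and 16.2, 16.8 and 20 CPM on plastic. The adjusted p of the difference of VEGFC was 0.0211, and the call ended without OVCAR4 3D replicate 4 (0.0594), 3D replicate 6 (0.0895) or plastic replicate 6 (0.0746). CACNA1H, a T-type calcium channel subunit, and ENSG00000250349, an unnamed gene on the X chromosome, had differences of 2.58 (SE 0.48, adjusted p = 0.0358) and 2.61 (SE 0.50, adjusted p = 0.0405). CACNA1H was called without Kuramochi 3D replicate 8, Kuramochi plastic replicate 2 or OVCAR4 3D replicate 42 and not in the other 9 fits (0.0605 to 0.113), and ENSG00000250349 only without OVCAR4 plastic replicate 42, with 0.0526 to 0.116 in the other 11 fits.

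P2RY6 and SYTL3 were among the only 5 genes that were called in all 12 fits and reached at least 5 CPM in both lines. P2RY6 (chromosome 11, 73264498 to 73305103, plus strand), a receptor for extracellular UDP, had 5.17, 8.21 and 8.01 CPM in OVCAR4 3D and 8.24, 15 and 13.2 CPM in OVCAR4 plastic, against 43.6, 19.8 and 30.1 CPM in Kuramochi 3D and 1.81, 1.62 and 5.14 CPM in Kuramochi plastic. It rose in Kuramochi by a log2 response of 3.47 (SE 0.44), the value in OVCAR4 was -0.77 (SE 0.40) and did not pass the test, and the difference was -4.24 (SE 0.59, adjusted p = 0.0115 from edgeR). Without Kuramochi plastic replicate 8 it was -4.95. SYTL3 (chromosome 6, 158650014 to 158764876, plus strand), a synaptotagmin-like protein that binds Rab27 on secretory vesicles, rose in OVCAR4, with 18.9, 17.4 and 19.7 CPM on 3D against 5.21, 4.91 and 5 CPM on plastic. In Kuramochi it had 3.78, 3.98 and 3 CPM on 3D and 6.68, 3.87 and 5.57 CPM on plastic, where the cultures overlap. The log2 response was 1.89 (SE 0.21) in OVCAR4 and -0.58 (SE 0.21) in Kuramochi, where it did not pass the test, and the difference was 2.47 (SE 0.29, adjusted p = 0.00553).

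Many called genes were near absent on plastic in 1 of the lines. Of the 45 genes with the higher response in OVCAR4, 30 averaged under 1 CPM on OVCAR4 plastic and at least 1 CPM on Kuramochi plastic, and 15 reached 1 CPM on plastic in both lines. Of the 41 with the lower response, 12 reached 1 CPM on plastic only in OVCAR4, 26 in both lines, 2 in neither and 1 only in Kuramochi. Among all genes tested, the share called was 2.17% of the 1430 that reached 1 CPM on plastic only in Kuramochi, 0.982% of the 1222 that did so only in OVCAR4, 0.292% of the 14045 that did so in both and 0.0507% of the 3948 that did so in neither.

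**Figure D3:**
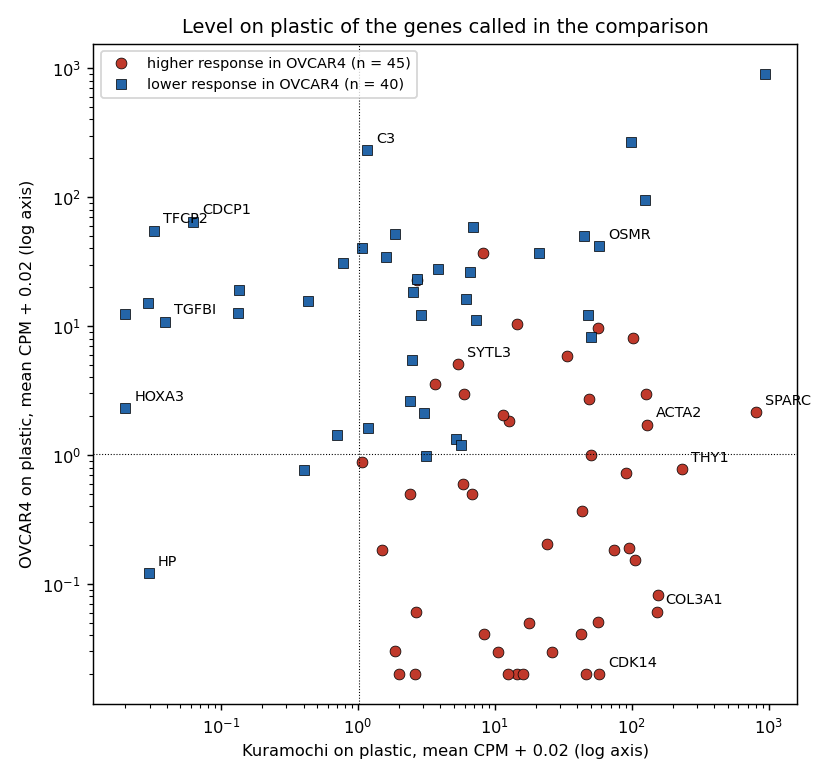
Mean level on plastic in OVCAR4 (vertical axis) and Kuramochi (horizontal axis), as CPM + 0.02 on log axes, for 85 called genes, with dotted lines at 1 CPM. The circles (higher response in OVCAR4, 45 genes) lie mostly at the lower right, where the gene was near absent on OVCAR4 plastic, and the squares (lower response, 40 genes) lie higher up.

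Among the 30 genes under 1 CPM on OVCAR4 plastic were collagens, another matrix gene (FMOD) and transcription factors of mesenchymal cells. COL3A1 (chromosome 2, 188974373 to 189012746, plus strand), the gene of collagen III, had 36.9, 314 and 304 CPM in OVCAR4 3D replicates 42, 4 and 6 and 4 counts in all over the OVCAR4 plastic libraries. In Kuramochi it had 272, 382 and 464 CPM on 3D and 92.3, 188 and 175 CPM on plastic, which did not overlap, with a log2 response of 1.30 (SE 0.54) that did not pass the test. The difference was 10.96 (SE 1.19, adjusted p = 0.00553 from edgeR) and 12.21 without OVCAR4 plastic replicate 42, and limma-voom gave an adjusted p of 0.0846. SPARC and ACTA2 were not among the 30, since they exceeded 1 CPM on plastic in both lines. SPARC, a collagen-binding glycoprotein, had 20.3, 143 and 143 CPM in OVCAR4 3D and 2.09, 1.92 and 2.41 CPM in OVCAR4 plastic, against 1280, 1270 and 1190 CPM in Kuramochi 3D and 524, 1090 and 783 CPM in Kuramochi plastic. Its difference was 4.93 (SE 0.75, adjusted p = 0.0173), and the call ended without Kuramochi plastic replicate 4 (0.0518), OVCAR4 3D replicate 4 (0.0504) or plastic replicates 4 (0.0713) and 6 (0.0591) of OVCAR4, and by limma-voom (0.0945). ACTA2, the smooth muscle actin of myofibroblasts, had 9.48, 36.1 and 35.8 CPM in OVCAR4 3D and 2.37, 1.63 and 1.11 CPM in OVCAR4 plastic, against 48.9, 51.2 and 68.6 CPM in Kuramochi 3D and 62.9, 230.0 and 93.2 CPM in Kuramochi plastic. The difference of ACTA2 was 5.19 (SE 0.75, adjusted p = 0.0148), and 4.47 without Kuramochi plastic replicate 4, and the call ended without OVCAR4 plastic replicate 4 (0.0599) or 6 (0.0591).

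CDK14, a cyclin-dependent kinase, and PLXDC2, a plexin-domain membrane protein, averaged under 1 CPM in both cultures of OVCAR4. CDK14 had 0.532, 0.584 and 0.506 CPM in OVCAR4 3D and 0 counts in OVCAR4 plastic, against 63.4, 63.7 and 93.7 CPM in Kuramochi 3D and 60.6, 49.3 and 62.5 CPM in Kuramochi plastic. It was at least 17.6-fold higher on 3D in OVCAR4 (floor of 3 counts over the group), and at least 11.6-fold without OVCAR4 plastic replicate 4. PLXDC2 had 0.634, 1.11 and 1.09 CPM in OVCAR4 3D and 0 counts in OVCAR4 plastic, at least 30.5-fold higher (at least 20-fold without OVCAR4 plastic replicate 4), against 19.3, 25.8 and 16.1 CPM in Kuramochi 3D and 17.1, 14.1 and 16.4 CPM in Kuramochi plastic. The differences had adjusted p of 0.0093 for CDK14 and 0.00553 for PLXDC2 (edgeR).

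The transcription factors ZEB2 and TCF4, which act in epithelial-mesenchymal transition, and MAF also had 0 counts in OVCAR4 plastic. ZEB2 had 0.786, 1.05 and 0.692 CPM in OVCAR4 3D, at least 27.2-fold higher (at least 17.8-fold without OVCAR4 plastic replicate 4), and 6.15, 7.87 and 7.56 CPM in Kuramochi 3D against 2.12, 3.29 and 2.37 CPM in Kuramochi plastic, where it rose too. The adjusted p was 0.0167 for ZEB2 (0.0591 without OVCAR4 plastic replicate 6), 0.0173 for MAF (0.0591 without the same library) and 0.0228 for TCF4 (edgeR). For TCF4 the call ended with the replicate block (0.0715) and without OVCAR4 3D replicate 4 (0.0623) or 6 (0.0681), and without plastic replicate 4 (0.0719) or 6 (0.0746) of OVCAR4. TCF4 was at least 21.8-fold and MAF at least 17.3-fold higher on 3D in OVCAR4, and at least 14.3-fold and 11.4-fold without OVCAR4 plastic replicate 4. MAF was named after its values were seen. WT1, a factor of mesothelium and serous carcinoma, had 0.253, 0.707 and 0.665 CPM in OVCAR4 3D and 2 counts in OVCAR4 plastic, a ratio of 26 (95% counting interval 6.88 to 220.0, and 17.1 without OVCAR4 plastic replicate 4), against 17, 34.6 and 26.3 CPM in Kuramochi 3D and 41.3, 46.5 and 39.2 CPM in Kuramochi plastic. Its adjusted p was 0.0173, and the call ended without OVCAR4 3D replicate 4 or 6 (both 0.0504), and without plastic replicate 4 (0.0599) or 6 (0.0617) of OVCAR4.

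The level in OVCAR4 3D as a share of that in Kuramochi 3D varied over these 30 genes, being 0.735% for CDK14, 1.04% for COL4A5, 2.09% for WT1, 2.84% for TCF4, 3.5% for THY1, 4.62% for PLXDC2, 5.82% for MAF and 11.7% for ZEB2, with a median of 6.29%. The share was 54.1% for WNT2B and 58.6% for COL3A1, and the OVCAR4 level was above that of Kuramochi for FER1L5 (103%), CACNA1H (121%) and EGFL6 (1090%). Fibroblast genes moved with some of them. In OVCAR4 3D replicate 42, COL1A2, the gene of a collagen I chain, had 31 CPM against 297 and 290.0 CPM in replicates 4 and 6, and FAP, a fibroblast protease, had 0.431 CPM against 4.37 and 4.55 CPM. POSTN, which encodes the matrix protein periostin, had 3.85 CPM in that library against 21 and 20.4 CPM. It was at least 478-fold higher on 3D than on plastic in OVCAR4 and at least 346-fold higher in Kuramochi (0 counts on plastic in both lines, and at least 314-fold without OVCAR4 plastic replicate 4 and 224-fold and 218-fold without Kuramochi plastic replicate 2 or 4). The ratio of replicate 42 to the mean of the other 2 libraries was 0.106 for COL1A2 and 0.0806 for DCN. It was 0.119 for COL3A1, 0.142 for SPARC, 0.172 for FMOD, 0.264 for ACTA2, 0.358 for THY1 and 0.369 for WT1, but 0.976 for CDK14, 0.902 for ZEB2, 1.01 for OSR1 and 1.91 for MAF. Over the 30 genes the median ratio was 0.573, and 13 were under 0.5. The part of fibroblast RNA in these calls was not tested.

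Over whole marker lists, the summed level of 20 fibroblast markers outside the matrisome was 50.8 to 104 CPM in OVCAR4 3D and 37.8 to 56.3 CPM in OVCAR4 plastic, against 165 to 391 CPM in Kuramochi 3D and 205 to 355 CPM in Kuramochi plastic, with 1, 7, 0 and 3 of them at 0 in all libraries of the group. The 16 mesothelial markers summed to 222 to 273 CPM in OVCAR4 3D and 160.0 to 301 CPM in OVCAR4 plastic, against 313 to 358 and 325 to 527 CPM in Kuramochi, with 0, 2, 0 and 4 at 0. Of 13 mesothelial markers tested, 6 rose in OVCAR4 (10.1% over all genes), and 6 rose and 4 fell in Kuramochi (10.3% each over all genes). WT1 was the mesothelial marker called between the lines (0.417% over all genes). Of 15 fibroblast markers tested, 9 rose in OVCAR4 (10.1% over all genes), and 6 rose and 1 fell in Kuramochi (10.3% each over all genes). OSR1 and THY1 were called between the lines (0.417% over all genes). OSR1, a transcription factor, was 46.6-fold higher on 3D in OVCAR4 (95% counting interval 8.01 to 1880), from 52 counts on 3D against 1 on plastic, 30.6-fold without OVCAR4 plastic replicate 4, and at least 10.4-fold when plastic replicate 6 was left out. Its adjusted p was 0.0228 (edgeR), and 0.0702 without OVCAR4 3D replicate 4, 0.0504 without 3D replicate 6, 0.0878 without OVCAR4 plastic replicate 4 and 0.0591 without plastic replicate 6. THY1, a surface glycoprotein of fibroblasts, had 2.66, 7.81 and 7.05 CPM in OVCAR4 3D and 0.812, 0.798 and 0.648 CPM in OVCAR4 plastic, against 243, 74.3 and 183 CPM and 300.0, 142 and 252 CPM in Kuramochi. Its adjusted p was 0.0448, and the call held only without Kuramochi 3D replicate 2 or 4 or OVCAR4 3D replicate 42 (0.0727 to 0.151 in the other 9 fits), and ended with all 18 libraries in the model (0.211) and by limma-voom (0.192).

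The genes of the second kind had little or no signal on Kuramochi plastic. TGFBI, a matrix protein induced by TGF-beta, had 51.6, 102 and 103 CPM in OVCAR4 3D and 14, 8.58 and 9.9 CPM in OVCAR4 plastic, against 29.1, 6.27 and 46.6 CPM in Kuramochi 3D replicates 2, 4 and 8 and 2 counts in Kuramochi plastic. It rose in both lines, by 1320-fold in Kuramochi (95% counting interval 365 to 10900, and 844-fold without Kuramochi 3D replicate 8). The difference had an adjusted p of 0.0328 (edgeR) and was called without Kuramochi 3D replicate 4 or 8, OVCAR4 3D replicate 42 or OVCAR4 plastic replicate 42, and not in the other 8 fits (0.0584 to 0.128) or by limma-voom (0.206). COL1A2 was not called between the lines in the main fit (adjusted p = 0.305 from edgeR). It was called by DESeq2 and by edgeR without the filter on low counts. It had 174, 37.2 and 268 CPM in Kuramochi 3D replicates 2, 4 and 8, in the order of TGFBI, and 3 counts in Kuramochi plastic. The ratio of replicate 4 to the mean of the other 2 libraries was 0.166 for TGFBI, 0.168 for COL1A2, 0.109 for DCN and 0.172 for FAP, and its median over 11 genes of this kind was 0.446, beside 1.04 over the 30 genes above. The part of fibroblast RNA was not tested here either.

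**Figure D4:**
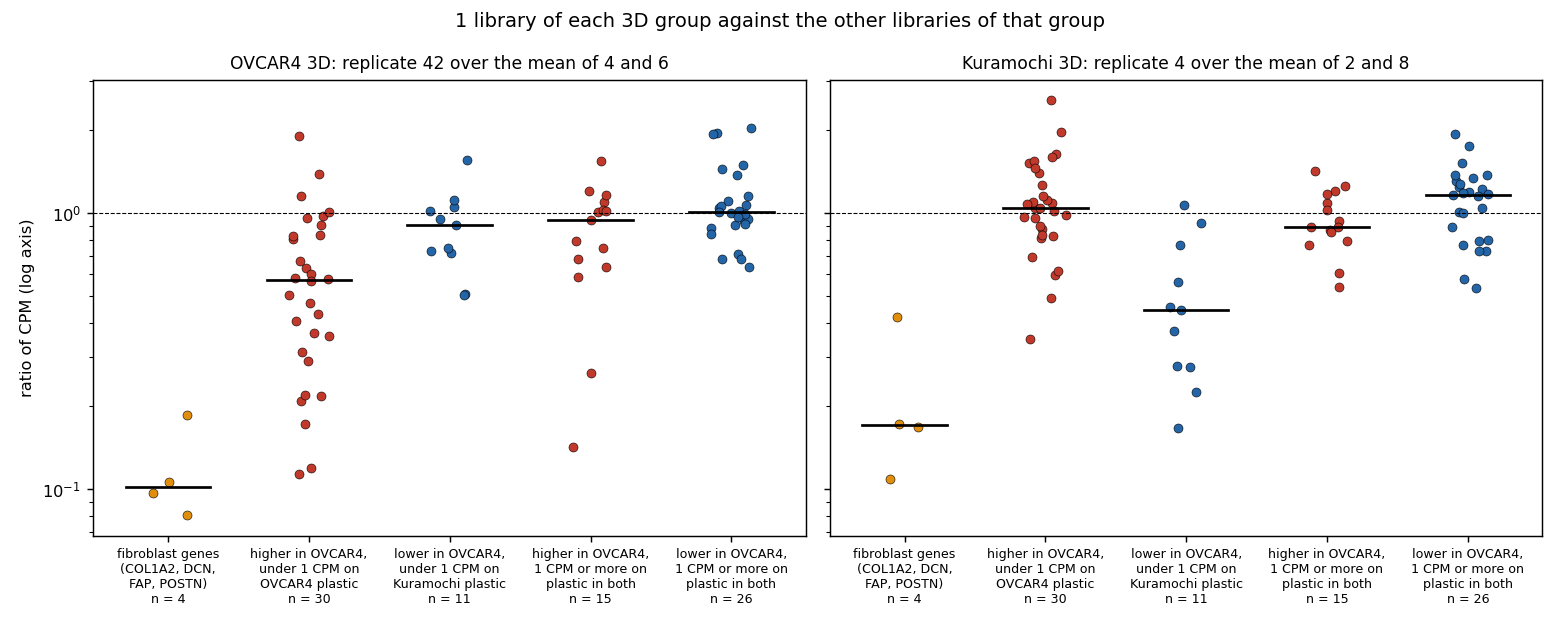
Ratio of 1 library to the mean of the other 2 libraries of its 3D group (log axis), in OVCAR4 for replicate 42 (left) and in Kuramochi for replicate 4 (right), with a point per gene and a line at the median of each set. The 4 fibroblast genes lie at 0.0806 to 0.186 on the left and 0.109 to 0.419 on the right, where some called genes lie as low, the 30 genes under 1 CPM on OVCAR4 plastic have a median of 0.573 on the left and 1.04 on the right, and the 11 genes under 1 CPM on Kuramochi plastic have a median of 0.446 on the right.

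TFCP2, a widely expressed transcription factor, and CDCP1, an epithelial membrane protein, were chosen after their values were seen. TFCP2 had 48.7, 51.9 and 50.1 CPM in OVCAR4 3D and 54.3, 51.6 and 59 CPM in OVCAR4 plastic, against 0.167, 0.121 and 0.261 CPM in Kuramochi 3D and 1 count in Kuramochi plastic. The level on Kuramochi 3D was 0.364% of that on OVCAR4 3D, and the ratio of 3D to plastic in Kuramochi was 17.9 (95% counting interval 2.81 to 749), with 11.6 and 11.3 without Kuramochi plastic replicates 2 and 4 and at least 4.31 without plastic replicate 8. Its adjusted p of 0.0358 (edgeR) was 0.0571 with the replicate block and 0.0672 to 0.113 in 8 of the 12 fits, the exceptions being those without Kuramochi 3D replicate 4, Kuramochi plastic replicate 8, OVCAR4 3D replicate 42 or OVCAR4 plastic replicate 42. CDCP1 had at least 94.4 CPM in each OVCAR4 3D library and 73.8, 54.2 and 66 CPM in OVCAR4 plastic, against 1.4, 0.573 and 2.74 CPM in Kuramochi 3D and 0, 0.0548 and 0.0728 CPM in Kuramochi plastic. The difference of CDCP1 was -4.56 (SE 0.82, adjusted p = 0.0341), -3.89 without Kuramochi 3D replicate 8 and -3.97 without Kuramochi plastic replicate 2. It was called without Kuramochi 3D replicate 4 or 8, OVCAR4 3D replicate 42 or OVCAR4 plastic replicate 42, and not in the other 8 fits (0.0521 to 0.113), with all 18 libraries (0.227) or by limma-voom (0.0606).

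HOXA3 was the member called of 29 HOX genes tested (0.417% over all genes). It had 1.72, 2.67 and 1.92 CPM in OVCAR4 3D and 2, 2.54 and 2.31 CPM in OVCAR4 plastic, against 0.167, 0.211 and 0.228 CPM in Kuramochi 3D and 0 counts in Kuramochi plastic. It was at least 6.67-fold higher on 3D in Kuramochi (at least 4.32-fold and 4.21-fold without plastic replicates 2 and 4). The adjusted p was 0.0228 (edgeR), 0.0571 with the replicate block, 0.0507 without Kuramochi 3D replicate 8, 0.0631 without plastic replicate 4 of that line, 0.0689 without OVCAR4 3D replicate 6, and 0.0599 and 0.0734 without OVCAR4 plastic replicates 4 and 6.

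Pathway lists showed differences of 1 sign in many members without calls. Of 47 interferon response genes tested, 43 had a positive difference, beside 10487 of 20645 over all genes. Their median was 0.87, beside 0.01 over all genes. In OVCAR4 9 rose (10.1% over all genes), and in Kuramochi 1 rose and 2 fell (10.3% each over all genes). None was called in the comparison by edgeR with the filter on low counts or by limma-voom. An unadjusted p under 0.05 was found for 11, DESeq2 and edgeR with all 18 libraries called 1 each, and edgeR without the filter called 21. GBP2, an interferon-induced GTPase, rose in OVCAR4 with a log2 response of 1.27 (SE 0.21) and had 0.23 (SE 0.20) in Kuramochi, a difference of 1.04 (SE 0.29, adjusted p = 0.191). IFI27 rose in OVCAR4 (1.09, SE 0.33) and had -0.72 (SE 0.32) in Kuramochi, a difference of 1.81 (SE 0.46, adjusted p = 0.139). ISG15, a ubiquitin-like modifier, fell in Kuramochi with -1.53 (SE 0.44) and had -0.31 (SE 0.44) in OVCAR4. Of 27 genes of cholesterol synthesis and uptake, 3 had a positive difference, with a median of -0.75. In OVCAR4 18 fell and 0 rose (10.2% and 10.1% over all genes). In Kuramochi 5 fell and 3 rose (10.3% each over all genes), and 1 member was called between the lines (0.417% over all genes). MVD, an enzyme of the mevalonate pathway, fell in OVCAR4 with -1.68 (SE 0.29) and had -0.70 (SE 0.28) in Kuramochi. Its difference of -0.98 (SE 0.40) did not pass the test (adjusted p = 0.558 from edgeR).

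**Figure D5:**
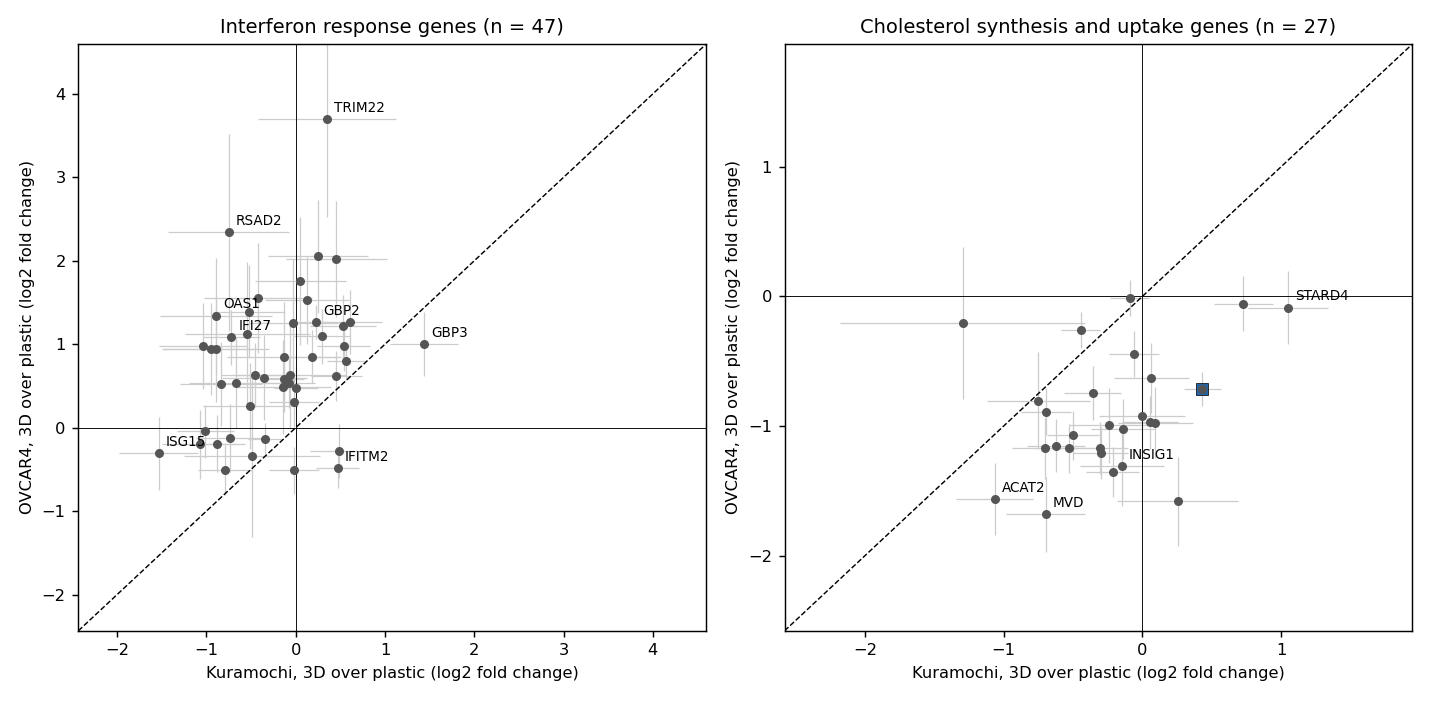
Log2 fold change of 3D over plastic in OVCAR4 (vertical axis) and Kuramochi (horizontal axis) for 47 interferon response genes (left) and 27 cholesterol genes (right), with bars of 1 standard error, a dashed line of equal response and a square for a called gene. On the left 43 genes lie above the dashed line, and on the right 24 lie below it.

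Of 41 gene lists, 14 had a called member. Collagens (COL3A1 and COL4A5), proteoglycans (FMOD), mesothelial and serous lineage markers (WT1), Wnt pathway genes (WNT2B) and contractile genes (ACTA2) had called members with the higher response in OVCAR4, and matrix glycoproteins had SPARC higher and LTBP1 and TGFBI lower. The medians of these lists were 0.26, 0.34, 0.43, 0.15, 0.05, 0.17 and -0.10 for collagens, proteoglycans, mesothelial markers, lineage markers, Wnt genes, contractile genes and matrix glycoproteins, and 0.68 for fibroblast markers. Genes of epithelial-mesenchymal transition had TCF4 and ZEB2 higher and TGFBI lower, with a median of 1.40 (2.50 without OVCAR4 plastic replicate 42), the TGF-beta pathway had LTBP1 lower (median -0.29), and the HOX genes had a median of -0.36. The median of the fibroblast markers was 1.65 without Kuramochi 3D replicate 8 and 1.83 without OVCAR4 plastic replicate 6. COL4A5 was at least 26-fold higher on 3D in OVCAR4, from 87 counts against 0 (at least 17.1-fold without OVCAR4 plastic replicate 4), and its call (adjusted p = 0.0228 from edgeR) ended without OVCAR4 3D replicate 4 (0.0505), or plastic replicate 4 (0.0719) or 6 (0.0746) of OVCAR4. FMOD, the matrix proteoglycan fibromodulin, was 172-fold higher on 3D in OVCAR4 (95% counting interval 47.2 to 1420, with at least 77.2-fold when plastic replicate 42 was left out and 113-fold for plastic replicate 4), and was called (0.0358) only without OVCAR4 3D replicate 42 among the 12 fits (0.0518 to 0.137 in the others), and not with all 18 libraries (0.117) or by limma-voom (0.119). LTBP1, which binds latent TGF-beta, rose in Kuramochi only by the test in each line, with a difference of -1.79 (SE 0.33, adjusted p = 0.0358), and was called without Kuramochi 3D replicate 8, Kuramochi plastic replicate 2 or OVCAR4 plastic replicate 4 and not in the other 9 fits (0.0522 to 0.113), with all 18 libraries (0.0699) or by limma-voom (0.0764). WNT2B, a secreted Wnt ligand, had a difference of 2.46 (SE 0.49, adjusted p = 0.0493), and was called only without Kuramochi plastic replicate 4 among those fits (0.055 to 0.149 in the others), and not with the replicate block (0.0571) or by limma-voom (0.145). SH3PXD2A, a scaffold of invadopodia that was chosen after its values were seen, rose in both lines, with 2.99 (SE 0.26) in OVCAR4 and 0.68 (SE 0.21) in Kuramochi, a difference of 2.31 (SE 0.34, adjusted p = 0.0148, and 0.0552 without OVCAR4 plastic replicate 6).

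In the other 27 lists, with 702 tested members, no member was called by edgeR in the 12 libraries with the filter on low counts, or by limma-voom. In a list 0 to 11 members had an unadjusted p under 0.05, DESeq2 called 0 to 3, edgeR with the replicate block or with all 18 libraries called 0 to 1, and edgeR without the filter called 0 to 21 (21 interferon genes, 7 matrix regulators and 0 to 6 in the other lists). Among them were lists in which many members fell in both lines, beside 10.2% of all genes in OVCAR4 and 10.3% in Kuramochi. Of 40 genes of G1/S and DNA replication 29 fell in OVCAR4 and 25 in Kuramochi (median difference 0.06), of 40 genes of G2 and mitosis 23 and 26 (0.15), of 39 nuclear genes of oxidative phosphorylation 23 and 36 (0.13), and of 37 genes of ribosome biogenesis 22 and 12 (-0.17). The medians of the other lists were 0.55 for the plasminogen activator system, 0.30 for IGF and PDGF genes, 0.25 for matrix regulators and for NF-kB targets, 0.22 for antigen presentation, 0.20 for endothelial markers, 0.17 for lysosome genes, 0.15 for p53 targets, 0.08 for genes of the mitochondrial genome, 0.03 for the unfolded protein response, 0.01 for the Notch pathway and 0.00 for epithelial genes. They were negative for fatty acid synthesis (-0.37), AP-1 and immediate-early genes (-0.24), heat shock chaperones (-0.20), YAP and TAZ targets (-0.19), metallothioneins (-0.17), leukocyte markers (-0.10), NRF2 targets (-0.07), hypoxia genes (-0.04), integrins (-0.04) and EGF receptor genes (-0.01).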

How the data were processed

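RNA was measured in 18 libraries, 12 of which (OVCAR4 and Kuramochi) were compared. Per the submitters' processing notes, the authors used Trimmomatic 0.33, TopHat2 2.1.0, HTSeq, DESeq2 1.12.3 and GRCh38. The deposited values are raw read counts per gene, one column a library, for 58288 gene IDs, of which 57532 matched a gene symbol and held 99.76% of the counts. No source used here states the strand setting of the counting, and genes that overlap or lie antisense to each other are uncertain.

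Genes passed edgeR's filterByExpr (minimum count 10, minimum total 15) over the 12 libraries. Counts were scaled by TMM and fitted with edgeR 4.0.16 (quasi-likelihood test, R 4.3.3) with a mean for each line and culture. The contrast was (OVCAR4 3D minus OVCAR4 plastic) minus (Kuramochi 3D minus Kuramochi plastic), with Benjamini-Hochberg adjustment over all genes and a threshold of 0.05. CPM use the scaled library sizes. Standard errors are on the log2 scale. They were derived from edgeR's test, as the absolute log2 value divided by the square root of its F statistic. Genes with 0 counts on plastic are given against a floor of 3 counts over the group, and those with 1 to 3 counts as a ratio with a 95% exact interval, both for counting error only. Libraries held 28415048 to 38490218 counts.

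Alternatives were DESeq2 1.42.0, limma-voom (limma 3.58.1), RLE scaling, other filters, all 18 libraries, a replicate block, close libraries as 1 sample and leaving out each library. Deviations from the group means correlated above 0.1 in every pair of same-numbered 3D and plastic libraries (correlations over genes 0.416, 0.126 and 0.224 in OVCAR4, 0.145, 0.105 and 0.392 in Kuramochi). Some libraries with different numbers correlated more (0.287 and 0.27 between OVCAR4 replicates 4 and 6). The main fit had no replicate block, and the fit with the block is given where it changes a call. The members of the lists, and the lists, were chosen with earlier results of these data known. Named genes were those with the largest differences called in every fit without 1 library at 5 CPM or more in both lines, the genes called in opposite directions in the lines, genes under 1 CPM in 1 line, up to 4 called members of each list, and COL1A2, POSTN and DCN. Some genes that met this rule are not reported here. OVCAR8 libraries entered only the alternative with all 18 libraries. No columns of the authors' own comparisons were used.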

Additional observations from a re-analysis of the deposited data

Results flagged for a closer look

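For 40 of the named genes, the response to 3D differed between OVCAR4 and Kuramochi by a test of the difference itself (edgeR's interaction term, adjusted over all genes). Groups of 3 libraries were too small to test for a library far from the others.

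The adjusted p was 0.00553 for C3, COL3A1, HP, PLXDC2 and SYTL3, 0.00921 for MREG, 0.0093 for CDK14, 0.00979 for C4A and 0.0115 for P2RY6. It was 0.0148 for ACTA2, SELENOP, SH3GL3 and SH3PXD2A, 0.0167 for ZEB2, 0.0173 for C4B, CXCL2, MAF, SPARC and WT1, and 0.019 for OSMR. The value was 0.0211 for VEGFC, 0.0228 for COL4A5, HOXA3, OSR1 and TCF4, and 0.0259 for IL4R. It lay closer to the threshold for TGFBI (0.0328), LRG1 and RUNX1 (0.0334), CDCP1 (0.0341), CACNA1H, FMOD, KLK10, LTBP1 and TFCP2 (0.0358), SOCS3 (0.0371), PTX3 (0.0384), ENSG00000250349 (0.0405), THY1 (0.0448) and WNT2B (0.0493). Those of the 40 genes called in all 12 fits without 1 library were C3, C4A, CDK14, COL3A1, MREG, P2RY6, PLXDC2 and SYTL3.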

How the results depend on the processing

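The count of 86 genes called between the lines was 327 by DESeq2, 176 with all 18 libraries, 57 by limma-voom, 132 with the replicate block, 28 with OVCAR4 3D replicates 4 and 6 as 1 sample, 650 without the filter on low counts and 8 to 120 without 1 library. Of the 650, 639 had also been tested with the filter. The 45 genes higher in OVCAR4 were 164, 98, 27, 79, 17 and 359 in the same order and 4 to 78 without 1 library, and the 41 lower genes were 163 by DESeq2, 78 with all 18 libraries, 11 with the close libraries as 1 sample, 291 without the filter and 4 to 53 without 1 library. The 10 genes that moved in opposite directions were 28 by DESeq2, 35 with all 18 libraries, 29 with the replicate block, 2 with the close libraries as 1 sample, 81 without the filter and 0 to 27 without 1 library. In OVCAR4 alone, the 4176 genes that changed on 3D were 717 with the close libraries as 1 sample and 575 to 5746 without 1 library. In Kuramochi alone, 4239 genes changed, and 1378 to 6812 without 1 library. Of the 86 genes, 86 remained called by DESeq2 and without the filter, 85 with RLE scaling, 82 with a filter of 1 CPM in 3 libraries, 73 with all 18 libraries, 67 with the replicate block and 51 by limma-voom. No gene named as called, nor COL1A2, changed the sign of its difference under any of these alternatives. The sign was not checked for the other named genes. The causes were not tested.

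With 3 libraries a group, the median standard error of a difference was 0.34 on the log2 scale and the smallest called difference was 1.14. The smallest called value depends on the test and the threshold. Differences that were not called were not shown to be absent. Genes that passed in 1 line alone were not shown to differ between lines unless called in the comparison. Each line is 1 tumor, so p-values measure the spread between libraries of these lines and not between tumors. OVCAR4 3D replicates 4 and 6 were far closer than other pairs (chi-square of 1.98 per degree of freedom). Whether they are separate cultures was not tested, and the spread in that group would be understated if they are not. In the fit without OVCAR4 3D replicate 42, that group held only this pair.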
